A study of Homo sapiens with 8 samples.

Results

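Interferon-stimulated genes were followed in 2 human colorectal cancer cell lines treated with a nanodrug or with free 5-fluorouracil (5-FU). The 43 genes were chosen by symbol as classical targets of interferon signalling, and all 43 were found among the 57169 genes of the deposited count table. Of these, 41 passed the filter on low counts and were tested among 21378 genes, and IFI44L and XAF1 did not pass it. Polyadenylated RNA was sequenced from SW620 cells given AFZC, SW620 cells given 5-FU, HCT116 cells given AFZC and HCT116 cells given 5-FU, with 2 libraries in each of these 4 groups. Exposure lasted 24 h, and each agent was used at its IC50, the dose at the midpoint of its inhibition curve. The labels do not spell out AFZC. The series title describes nanodrugs in which an aptamer-bearing metal-organic framework carries 5-FU, and AFZC is taken here to be that nanodrug. The doses are not given in the labels, and no untreated cells were analysed here, so each treatment value is AFZC relative to 5-FU. SW620 comes from a lymph node metastasis and HCT116 from a primary tumour, and each is a single established line with no stromal or immune partner cells. Whether the 2 libraries in a group were grown as separate cultures is not stated, so p-values reflect library-to-library spread that could be purely technical.

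Type I and type III interferons bind receptors at the cell surface, and the receptor-bound kinases JAK1 and TYK2 then phosphorylate STAT transcription factors, STAT2 among them. With IRF9 these form a complex that binds the interferon-stimulated response element (ISRE) in promoters and turns on a shared set of genes. The products of this set block virus entry, sense or degrade foreign RNA, modify proteins with the ubiquitin-like ISG15, and restrain growth. Cancer cells can carry the set at very different basal levels.

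Total counts per library lay between 31991561 and 40590291. Replicate libraries of every group differed by more than sampling noise, as the chi-square statistic over genes was 20.9 to 51.5 times its degrees of freedom, and each was kept as a sample. Levels are in CPM, counts scaled to library size, after correction by the trimmed mean of M-values (TMM), and "adjusted p" stands for the edgeR quasi-likelihood test with Benjamini-Hochberg adjustment over all 21378 genes, two-sided, with calls made below 0.05. Epithelial markers (10 genes) summed to 5516 and 5043 CPM in SW620 AFZC, 15216 and 16559 CPM in SW620 5-FU, 7949 and 4889 CPM in HCT116 AFZC, and 4332 and 3504 CPM in HCT116 5-FU, with at most 1 of them at 0. In SW620 the keratins KRT8, KRT18 and KRT19 were called lower under AFZC and KRT20 higher. In HCT116 VIL1 and KRT19 were called higher, and the other tested epithelial markers were not called in either line. Leukocyte markers (9 genes) summed to 44.3 and 18.1 CPM in SW620 AFZC against 5.78 and 8.28 CPM in SW620 5-FU, and to 9.65 and 8.24 CPM in HCT116 AFZC against 0.605 and 1.38 CPM in HCT116 5-FU, with 2 to 5 of the 9 genes at 0 in each library. Lysozyme (LYZ) and CD3D were called higher under AFZC in SW620 and ITGAM in HCT116, whereas PTPRC, which encodes the pan-leukocyte protein CD45, and CD3E each had 0 to 2 counts in every library. CD3D passed the low-count filter only through its SW620 AFZC libraries (53 and 46 counts), with 0 to 4 counts in every other library. Its call is therefore not independent of that filter. Fibroblast markers (6 genes) summed to 44.6 to 81.5 CPM over the 8 libraries, with 1 to 3 genes at 0, and PDGFRB was called higher under AFZC in both lines. The part of these marker genes in the results was not tested. In bulk RNA of this kind, fewer cells expressing a gene and less of its RNA per cell cannot be told apart.

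A promoter table from RefSeq (GRCh38.p14, 250 bases before to 50 bases after each transcript start) held 34 of the 43 genes. The ISRE core, searched as GAAA, any 2 bases and GAAA again (TTTC, any 2 bases and TTTC on the reverse strand), occurred in 22 of these 34 promoters (64.7%), against 996 of all 27305 promoters of that length (3.65%). The GAS motif TTCNNNGAA, a palindromic element bound by STAT dimers, occurred in 10 of the 34 (29.4%), against 2152 of the 27305 (7.88%). Among members called under AFZC in at least 1 line, 10 of the 14 with a promoter in the table (71.4%) held the ISRE core, and 12 of the 20 other members did (60.0%). A match is a description of these letters, not evidence of a bound site. The 5 promoters below are shown because their genes carry the main patterns: OAS3 and SAMD9 rose under AFZC in both lines, IFIT1 and IFITM1 rose in SW620 with a called difference between lines, and BST2 moved in opposite directions. Each runs 5′ to 3′ on the gene's strand from 170 bases before the start to the 10 bases from it on, with ISRE core matches in capitals.
OAS3, chr12:112938304-112938483, plus strand: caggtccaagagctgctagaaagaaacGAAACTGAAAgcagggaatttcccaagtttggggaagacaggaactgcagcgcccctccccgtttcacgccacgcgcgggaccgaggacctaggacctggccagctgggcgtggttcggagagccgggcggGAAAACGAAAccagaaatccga
SAMD9, chr7:93117970-93118149, minus strand: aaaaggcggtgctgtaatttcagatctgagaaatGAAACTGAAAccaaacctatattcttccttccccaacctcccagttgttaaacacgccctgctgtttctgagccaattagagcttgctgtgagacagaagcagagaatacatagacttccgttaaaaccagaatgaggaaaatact
IFIT1, chr10:89392453-89392632, plus strand: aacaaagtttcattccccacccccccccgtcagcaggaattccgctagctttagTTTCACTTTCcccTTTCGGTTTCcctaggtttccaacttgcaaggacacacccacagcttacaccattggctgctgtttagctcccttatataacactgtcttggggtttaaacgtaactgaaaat
IFITM1, chr11:313870-314049, plus strand: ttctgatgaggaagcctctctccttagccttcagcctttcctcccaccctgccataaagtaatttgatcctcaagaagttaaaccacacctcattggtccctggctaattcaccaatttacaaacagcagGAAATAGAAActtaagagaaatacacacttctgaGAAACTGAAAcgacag
BST2, chr19:17405621-17405800, minus strand: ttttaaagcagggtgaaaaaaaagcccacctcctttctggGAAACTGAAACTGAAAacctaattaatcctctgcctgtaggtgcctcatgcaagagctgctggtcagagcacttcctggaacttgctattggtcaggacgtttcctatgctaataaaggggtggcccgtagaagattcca
The OAS3 promoter held cores at -143 to -134 and at -12 to -3 relative to the start, and SAMD9 held 1 core at -136 to -127. In IFIT1 both cores lay on the reverse strand, at -116 to -107 and -103 to -94. The 2 BST2 cores overlapped each other, at -130 to -121 and -124 to -115, and a GAS match at -136 to -128 overlapped the first of them. IFITM1 held a core at -40 to -31 and a second that ran across the transcript start, and a GAS match at -12 to -4 overlapped the second.

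**Figure D1:**
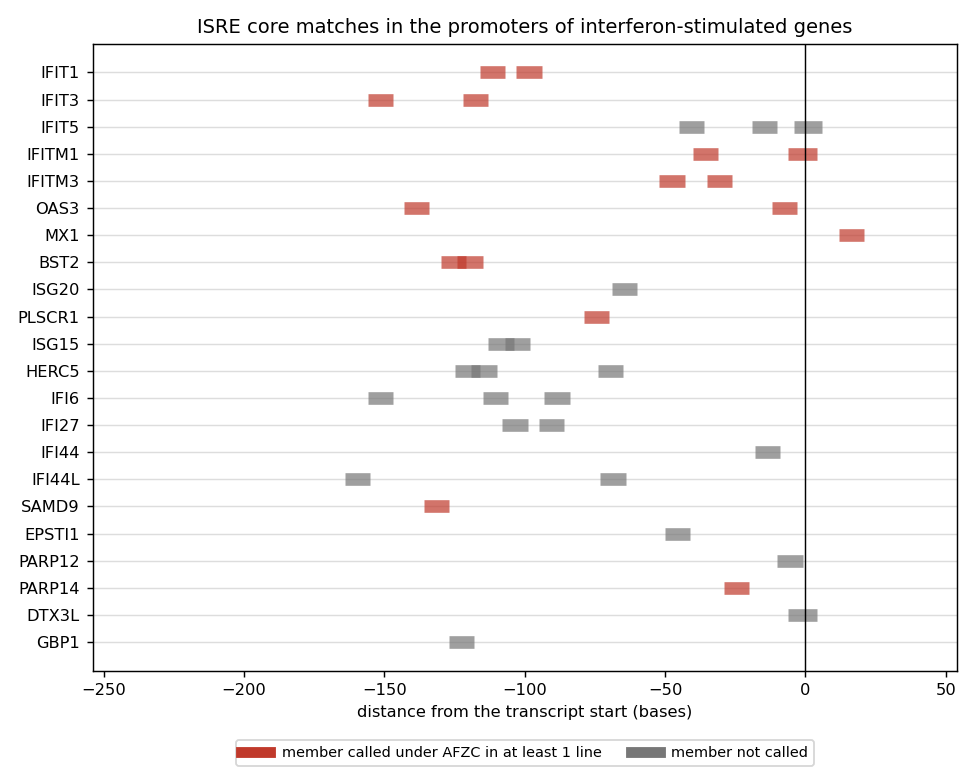
ISRE core matches (GAAA, any 2 bases, GAAA, on either strand) in the 22 member promoters that held one, by distance in bases from the transcript start (vertical line). Red bars mark members called under AFZC in at least 1 line and grey bars the others, and both kinds lie mostly within 170 bases before the start.

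SW620 cells carried more interferon-stimulated transcripts under AFZC than under 5-FU. Of the 41 tested members 18 rose and none fell, where 11.6% of all genes tested were called higher and 6.95% lower. SAMD9L, counted among the 18, needed its SW620 AFZC libraries to pass the low-count filter. The median log2 fold change of the members was 1.14, against 0.03 over all genes. The summed level of the 43 genes was 1102 and 886 CPM in SW620 AFZC, against 600.3 and 722 CPM in SW620 5-FU. At an unadjusted p under 0.05, 25 members passed in either direction. The share of all genes passing that cutoff was not counted, so this number is no result about the members. The 2 AFZC libraries lay above both 5-FU libraries for 29 members (31.5% of all genes did) and below both for 2 members (28.4% of all genes). Without SW620 AFZC replicate 1, 12 members rose, with a member median of 0.61. Without SW620 5-FU replicate 1 the count was 12, without SW620 5-FU replicate 2 it was 7, and without SW620 AFZC replicate 2 it was 21. These smaller fits keep the lone library of a group and assume that it varies like the other groups. Their all-gene shares are not given here, so their member counts have no reference.

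In HCT116 fewer members were called. Under AFZC 6 members rose (OAS1, OAS3, USP18, SAMD9, PARP14 and TRIM22) and 1 fell (BST2), of 41 tested, where 5.87% of all genes tested were called higher and 3.74% lower. The member median was 0.44, against 0.00 over all genes. The 43 genes summed to 1519 and 1047 CPM in HCT116 AFZC, against 907 and 823 CPM in HCT116 5-FU. At an unadjusted p under 0.05, 13 members passed, and again the share of all genes was not counted. AFZC libraries lay above both 5-FU libraries for 22 members (28.1% of all genes) and below both for 6 (27.4% of all genes). The number that rose was 3 without HCT116 AFZC replicate 1, 8 without HCT116 AFZC replicate 2, and 1 without either HCT116 5-FU library, and the number that fell was 0 in each of these. DESeq2 called 11 members higher, and a fit of the HCT116 libraries alone called 9 higher and 2 lower. The member counts under these settings do not stand beside all-gene shares of the same settings, and all-gene calls also moved between settings. Altogether 4 members rose in both lines (OAS3, USP18, SAMD9 and PARP14), 2 were called higher in HCT116 alone and 14 in SW620 alone. The shares of all genes called in both lines or in 1 line alone were not counted, so the split is no result about the set. That split is also not by itself a difference between lines, which was tested gene by gene.

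**Figure D2:**
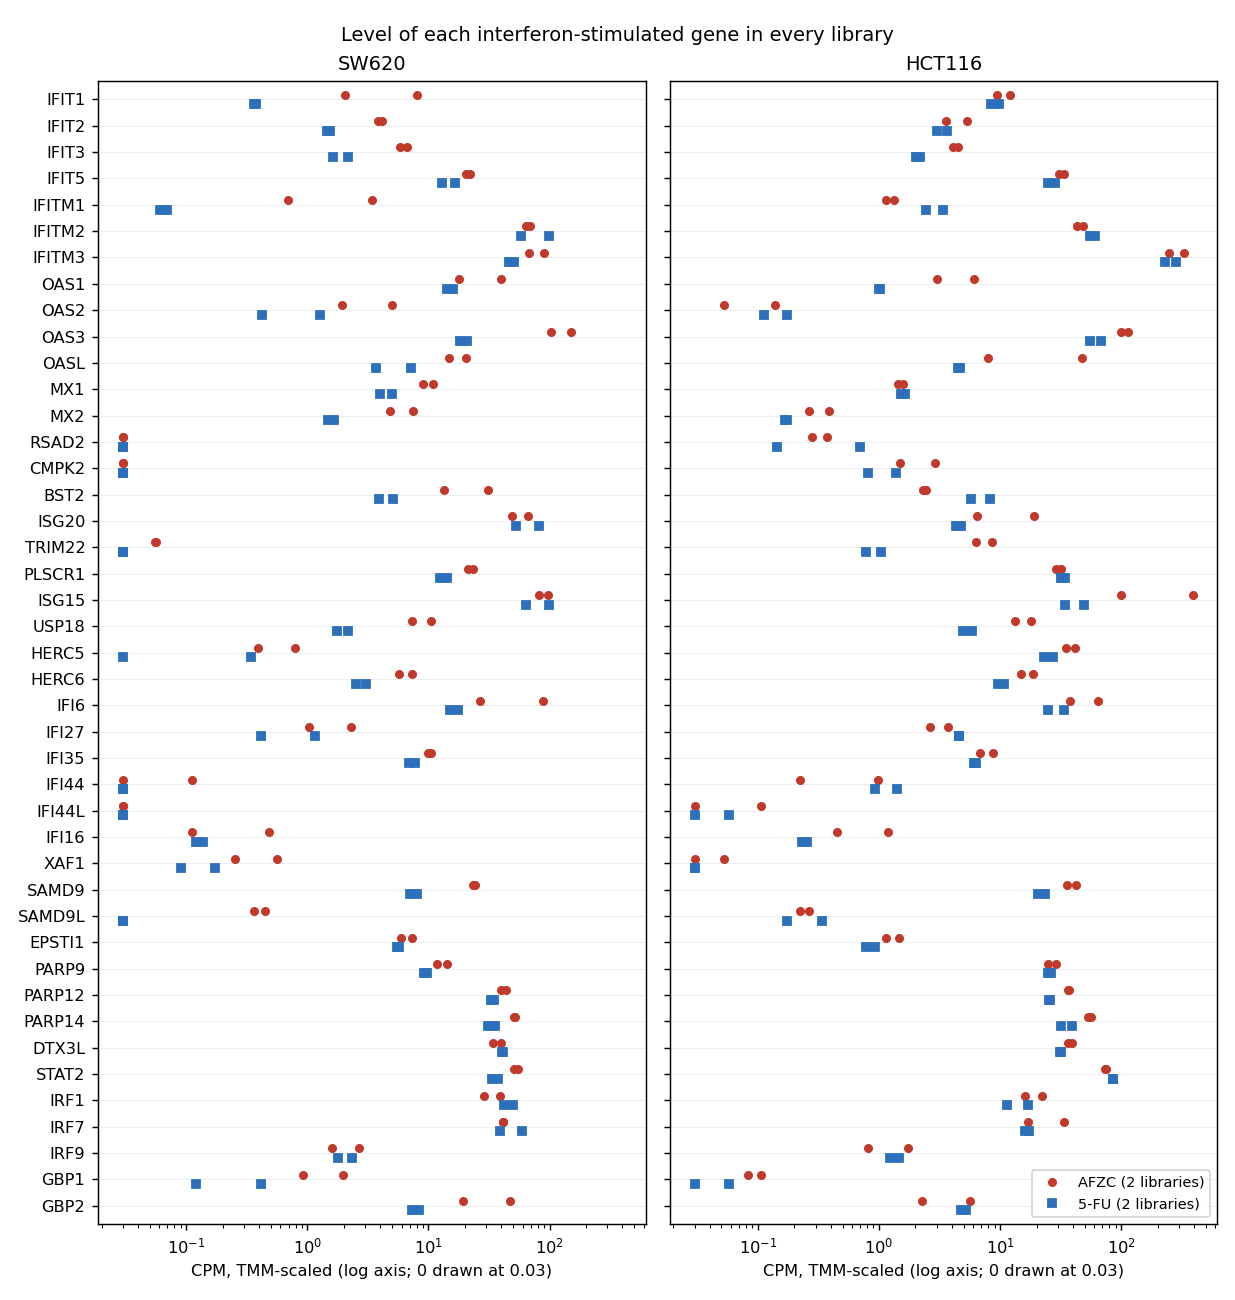
Level of all 43 genes in each of the 8 libraries, as TMM-scaled CPM on a log axis (0 drawn at 0.03), with SW620 left and HCT116 right, and AFZC as red circles and 5-FU as blue squares. In SW620 the red circles sit right of the blue squares for 29 tested members, and CMPK2 and RSAD2 are at 0 in all SW620 libraries but not in HCT116.

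The difference between lines was read from the interaction of line and treatment in the same fit. The AFZC effect was larger in SW620 than in HCT116 for 8 of the 41 members (BST2, OAS3, IFITM1, IFIT1, GBP2, STAT2, PLSCR1 and SAMD9L) and smaller for none, where 5.65% of all genes tested were called larger and 4.14% smaller. Of these, SAMD9L needed its SW620 AFZC libraries to pass the low-count filter. The fitted difference was positive for 30 members and negative for 11. Negative values with the smallest adjusted p were those of IRF1 (-0.88 ± 0.337, adjusted p = 0.124), ISG15 (-2.39 ± 0.846, adjusted p = 0.142) and ISG20 (-1.72 ± 0.642, adjusted p = 0.143). ISG15 was called smaller with the replicate block, ISG20 with DESeq2, and IRF1, IRF7 and OAS1 without the low-count filter. The member median of the difference was 0.66, against 0.04 over all genes. It was 0.40 without SW620 AFZC replicate 1. Leaving out single libraries gave between 3 members (without HCT116 5-FU replicate 1, or without SW620 5-FU replicate 2) and 7 members called larger (without SW620 AFZC replicate 2). The count was 5 without HCT116 AFZC replicate 1 or SW620 AFZC replicate 1, and 4 without HCT116 AFZC replicate 2, HCT116 5-FU replicate 2 or SW620 5-FU replicate 1. BST2, OAS3 and IFITM1 were called in every alternative run. The 2 treatment contrasts share no library, but both enter this difference. All-gene shares of the smaller fits are not given here either.

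**Figure D3:**
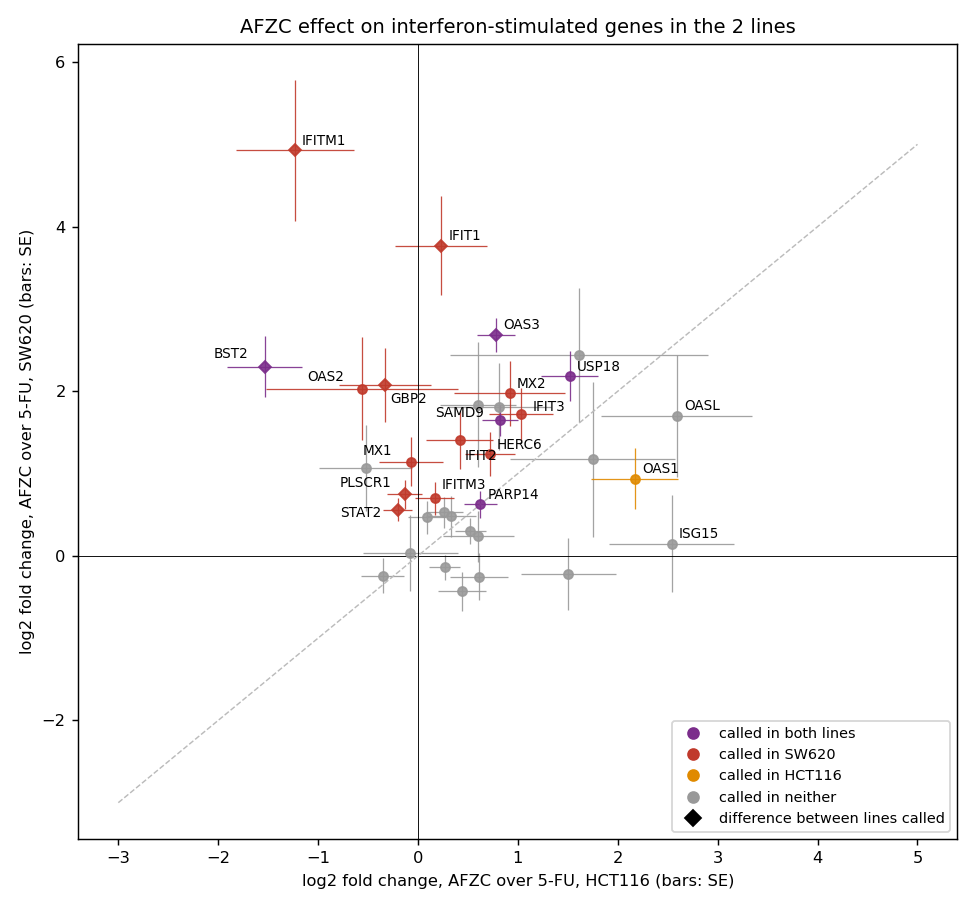
AFZC effect (log2 fold change over 5-FU) in SW620 on the vertical axis and HCT116 on the horizontal axis for 36 tested members, with standard errors, leaving out 5 members with a group at 0. Diamonds mark a called difference between lines, and the diamonds lie above the dashed line of equal effects, with BST2 at 2.30 in SW620 and -1.54 in HCT116.

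The IFIT proteins bind viral RNA that lacks a host cap signature, and their genes lie side by side on chromosome 10. Of the 4 IFIT genes 3 rose in SW620 under AFZC, where 11.6% of all genes tested were called higher. None was called in HCT116, where 5.87% of all genes tested were called higher and 3.74% lower. The difference between lines was called for IFIT1 alone, and not for IFIT2 (0.99 ± 0.481, adjusted p = 0.225) or IFIT3 (0.68 ± 0.453, adjusted p = 0.382). IFIT1 had 8.11 and 2.06 CPM in SW620 AFZC, against 0.379 and 0.363 CPM in SW620 5-FU. The groups did not overlap, although the AFZC libraries differed widely from each other. In HCT116 it had 11.98 and 9.49 CPM under AFZC, against 9.89 and 8.39 CPM under 5-FU, and these ranges overlapped. Its log2 fold change came to 3.77 ± 0.602 (SE) in SW620 (adjusted p = 0.00157) and 0.23 ± 0.462 in HCT116 (adjusted p = 0.827). The difference of effects was 3.53 ± 0.761 (adjusted p = 0.0146). The SW620 value was 2.48 without SW620 AFZC replicate 1 and 4.44 without SW620 AFZC replicate 2, and it was called in both. The call on the difference was lost without HCT116 5-FU replicate 1 (adjusted p = 0.0678), SW620 5-FU replicate 1 (0.0651) or SW620 5-FU replicate 2 (0.0907), and its value was 2.26 without SW620 AFZC replicate 1 and 4.23 without SW620 AFZC replicate 2.

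IFIT2, which binds IFIT1 and IFIT3 and has been linked to cell death, had 3.86 and 4.10 CPM in SW620 AFZC, against 1.55 and 1.45 CPM in SW620 5-FU. HCT116 AFZC had 3.58 and 5.33 CPM and HCT116 5-FU 3.63 and 3.03 CPM. The SW620 groups did not overlap and the HCT116 groups did. The log2 fold change was 1.41 ± 0.35 in SW620 (adjusted p = 0.015), and that call was lost without SW620 5-FU replicate 1 (0.067) or replicate 2 (0.106). IFIT3, a scaffold that stabilises IFIT1, had 5.85 and 6.64 CPM in SW620 AFZC, against 2.17 and 1.63 CPM in SW620 5-FU. It had 4.08 and 4.49 CPM in HCT116 AFZC, against 2.16 and 2.02 CPM in HCT116 5-FU. Neither line overlapped, with log2 fold changes of 1.72 ± 0.326 in SW620 (adjusted p = 0.00328) and 1.03 ± 0.321 in HCT116 (adjusted p = 0.0608). DESeq2 placed the HCT116 value of IFIT3 past the threshold (adjusted p = 0.0327), as did the fit of HCT116 alone (0.038). IFIT5 averaged 21.3 ± 1.15 CPM in SW620 AFZC and 14.8 ± 2.51 CPM in SW620 5-FU (SD, n = 2 each), and its log2 fold change of 0.53 ± 0.189 missed the threshold (adjusted p = 0.0702).

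The IFITM proteins sit in cell and endosome membranes and hinder fusion of virus envelopes. IFITM1 moved apart between the lines. It had 3.43 and 0.697 CPM in SW620 AFZC, against 0.0689 and 0.0604 CPM in SW620 5-FU. HCT116 showed 1.14 and 1.33 CPM under AFZC, against 3.37 and 2.44 CPM under 5-FU. In SW620 both AFZC libraries were higher and in HCT116 both were lower, with no overlap in either line. In SW620 the pooled counts were 147 under AFZC and 4 under 5-FU, a ratio of 32.0 with an exact 95% counting interval of 12.2 to 119. The fitted log2 fold change was 4.93 ± 0.854 in SW620 (adjusted p = 0.00189) and -1.23 ± 0.59 in HCT116 (adjusted p = 0.218), and the fit of HCT116 alone called the second (0.0377). The difference of effects was 6.16 ± 1.05 (adjusted p = 0.00363). Without SW620 AFZC replicate 1 it was 4.62 and the SW620 value 3.37, and without SW620 AFZC replicate 2 they were 6.91 and 5.66, all called. IFITM3 had 90.1 and 67.2 CPM in SW620 AFZC, against 45.9 and 51.1 CPM in SW620 5-FU. In HCT116 it had 330.01 and 249 CPM under AFZC, against 286 and 230.4 CPM under 5-FU, which overlapped. The SW620 log2 fold change was 0.70 ± 0.195 (adjusted p = 0.0263), a call lost without SW620 AFZC replicate 1 (0.166), SW620 5-FU replicate 1 (0.151) or SW620 5-FU replicate 2 (0.106). IFITM2 was not called in either line, at 66.6 ± 3.92 CPM in SW620 AFZC and 78.8 ± 29.9 CPM in SW620 5-FU. These 3 genes share sequence with other genes, and 32.0% of the 50-base words of IFITM1, 34.3% of IFITM2 and 35.2% of IFITM3 recur in another gene's transcripts. The annotated IFITM2 span (chr11:307631-315272) also covers IFITM1 (chr11:313506-315272), so the counting could split their reads and the levels are uncertain.

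**Figure D4:**
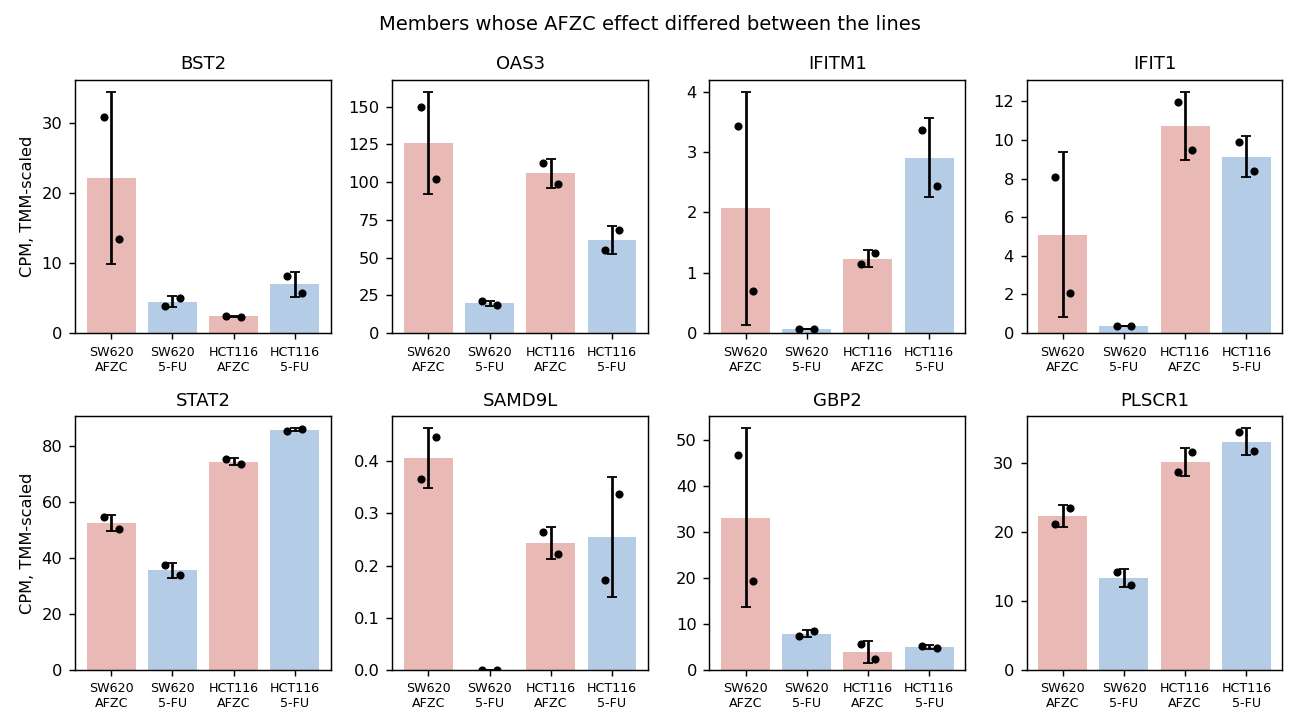
TMM-scaled CPM of the 8 members whose AFZC effect differed between lines, as bars for the group mean, error bars for the SD and points for each of the 2 libraries per group. IFITM1 and BST2 show SW620 AFZC bars above SW620 5-FU and HCT116 AFZC bars below HCT116 5-FU, and SAMD9L is at 0 in both SW620 5-FU libraries.

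The 2′-5′-oligoadenylate synthetases (OAS) make short adenylate chains on sensing double-stranded RNA, which set off RNA decay. OAS3, the longest of them, rose in both lines and more so in SW620. It had 150.03 and 102 CPM in SW620 AFZC, against 20.9 and 18.3 CPM in SW620 5-FU. HCT116 had 113 and 99.1 CPM under AFZC, against 55.0 and 68.4 CPM under 5-FU. Neither line overlapped, and the AFZC libraries of both lines reached a like range (the line difference under AFZC was 0.25 ± 0.191, adjusted p = 0.294). OAS3 had a log2 fold change of 2.69 ± 0.205 in SW620 (adjusted p = 7.65e-06) and 0.78 ± 0.192 in HCT116 (adjusted p = 0.0236), and the difference of effects was 1.91 ± 0.275 (adjusted p = 0.00132). The HCT116 call was lost without HCT116 AFZC replicate 1 (0.123), 5-FU replicate 1 (0.246) or 5-FU replicate 2 (0.0816).

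OAS1 rose in HCT116. It had 6.10 and 2.996 CPM in HCT116 AFZC, against 1.01 and 1.01 CPM in HCT116 5-FU, and 39.6 and 17.9 CPM in SW620 AFZC, against 15.8 and 14.2 CPM in SW620 5-FU. No library of one treatment overlapped the other in either line. OAS1 had a log2 fold change of 2.17 ± 0.438 in HCT116 (adjusted p = 0.0106) and 0.94 ± 0.372 in SW620 (adjusted p = 0.103), and their difference was not called (-1.23 ± 0.57, adjusted p = 0.206). In HCT116 the call was lost without AFZC replicate 1 (log2 fold change 1.57, adjusted p = 0.0734), 5-FU replicate 1 (0.127) or 5-FU replicate 2 (0.0932). The SW620 value was called with library sizes only (1.32, adjusted p = 0.0229), without the low-count filter (0.94, adjusted p = 0.00349) and without SW620 AFZC replicate 2 (1.40, adjusted p = 0.00985). OAS2 was called in SW620, with 4.98 and 1.93 CPM in SW620 AFZC, against 1.27 and 0.423 CPM in SW620 5-FU. HCT116 held 7 counts over both AFZC libraries and 10 over both 5-FU libraries. The difference of effects for OAS2 was not called (2.60 ± 1.16, adjusted p = 0.184). The SW620 log2 fold change of OAS2 was 2.03 ± 0.625 (adjusted p = 0.0389). It was 1.20 without SW620 AFZC replicate 1 (adjusted p = 0.348), 1.44 without SW620 5-FU replicate 2 (0.26) and 3.02 without SW620 5-FU replicate 1 (0.0338). OASL, a catalytically inactive relative, was not called. It had 20.5 and 14.9 CPM in SW620 AFZC, against 3.72 and 7.13 CPM in SW620 5-FU. HCT116 AFZC had 47.3 and 7.93 CPM and HCT116 5-FU 4.70 and 4.49 CPM, so that 1 AFZC library stood far above the other. Its log2 fold change was 1.70 ± 0.74 in SW620 (adjusted p = 0.161) and 2.59 ± 0.758 in HCT116 (adjusted p = 0.079). For OASL the SW620 value was called in the fit of SW620 alone (0.00473), and the HCT116 value by DESeq2 (0.0294) and without HCT116 AFZC replicate 2 (3.36, adjusted p = 5.74e-05).

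MX1 and MX2 encode dynamin-like GTPases that trap viral nucleocapsids. MX1 had 10.9 and 9.10 CPM in SW620 AFZC, against 3.99 and 5.04 CPM in SW620 5-FU. In HCT116 it had 1.43 and 1.58 CPM under AFZC, against 1.64 and 1.52 CPM under 5-FU. The SW620 groups were apart and the HCT116 groups overlapped. MX2 had 7.46 and 4.85 CPM in SW620 AFZC, against 1.65 and 1.48 CPM in SW620 5-FU, and 24 counts over both HCT116 AFZC libraries, against 12 over both HCT116 5-FU libraries. The SW620 log2 fold change was 1.14 ± 0.298 for MX1 (adjusted p = 0.0189) and 1.97 ± 0.397 for MX2 (adjusted p = 0.00467). The MX1 call was lost without SW620 AFZC replicate 1 (0.0896), SW620 5-FU replicate 1 (0.125) or SW620 5-FU replicate 2 (0.0717), and the MX2 call without SW620 5-FU replicate 2 (0.0535). The difference between lines was not called for either gene.

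BST2 (tetherin), which holds budding virus particles at the cell surface, was the one member called in opposite directions. It had 30.9 and 13.5 CPM in SW620 AFZC, against 3.92 and 5.08 CPM in SW620 5-FU. HCT116 had 2.46 and 2.33 CPM under AFZC, against 8.19 and 5.73 CPM under 5-FU. The groups were apart in both lines. BST2 rose in SW620 by a log2 fold change of 2.30 ± 0.369 (adjusted p = 0.00118) and fell in HCT116 (-1.54 ± 0.373, adjusted p = 0.0217), with a difference of 3.83 ± 0.524 (adjusted p = 0.000958). Without SW620 AFZC replicate 1 the SW620 value was 1.59 and the difference 3.14, both called. The HCT116 fall lost its call without any single HCT116 library, with adjusted p of 0.108 (AFZC replicate 1), 0.0733 (AFZC replicate 2), 0.218 (5-FU replicate 1) and 0.0667 (5-FU replicate 2).

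TRIM22, a ubiquitin ligase that restricts several viruses, was almost confined to HCT116 in these libraries. It had 6.31 and 8.54 CPM in HCT116 AFZC, against 0.778 and 1.04 CPM in HCT116 5-FU, with no overlap. SW620 held 4 counts over both AFZC libraries and 0 over both 5-FU libraries. The HCT116 log2 fold change was 3.02 ± 0.415 (adjusted p = 0.00134), the only HCT116 rise called in every alternative run, and 13.4% of its 50-base words recur in other genes' transcripts. PLSCR1, a phospholipid scramblase with antiviral activity, had 21.2 and 23.4 CPM in SW620 AFZC, against 14.3 and 12.4 CPM in SW620 5-FU. HCT116 had 28.7 and 31.6 CPM under AFZC, against 34.4 and 31.7 CPM under 5-FU. The groups did not overlap in either line, with AFZC higher in SW620 and lower in HCT116. PLSCR1 had a log2 fold change of 0.75 ± 0.179 in SW620 (adjusted p = 0.0124) and -0.13 ± 0.175 in HCT116 (adjusted p = 0.708), with a difference of 0.88 ± 0.25 (adjusted p = 0.0434). The SW620 call was lost without SW620 5-FU replicate 2 (0.131). The difference lost its call without any single library other than SW620 AFZC replicate 1 (0.0519 to 0.182). RSAD2 (viperin), which makes a chain-terminating nucleotide, and its neighbour CMPK2, a mitochondrial nucleotide kinase, had 0 counts in all 4 SW620 libraries. In HCT116 CMPK2 had 1.48 and 2.91 CPM under AFZC, against 1.38 and 0.814 CPM under 5-FU. RSAD2 had 0.371 and 0.277 CPM in HCT116 AFZC, against 0.144 and 0.702 CPM in HCT116 5-FU, and neither was called between treatments.

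ISG15 is itself a ubiquitin-like modifier, USP18 removes it from proteins and also damps receptor signalling, and HERC5 and HERC6 belong to the ligase family that attaches it. USP18 rose in both lines. It had 10.4 and 7.34 CPM in SW620 AFZC, against 2.17 and 1.75 CPM in SW620 5-FU. HCT116 had 17.8 and 13.3 CPM under AFZC, against 5.91 and 4.97 CPM under 5-FU. Treatments were apart in both lines, with log2 fold changes of 2.18 ± 0.304 in SW620 (adjusted p = 0.000463) and 1.52 ± 0.285 in HCT116 (adjusted p = 0.00617), and a difference of 0.66 ± 0.408 that was not called (adjusted p = 0.343). The HCT116 call was lost without AFZC replicate 1 (0.0588), 5-FU replicate 1 (0.0789) or 5-FU replicate 2 (0.087). USP18 shares 23.4% of its 50-base words with other transcripts, mainly those of its copy USP41, so its level is uncertain.

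HERC6 had 5.74 and 7.34 CPM in SW620 AFZC, against 3.06 and 2.51 CPM in SW620 5-FU. It had 15.0 and 18.6 CPM in HCT116 AFZC, against 10.7 and 9.69 CPM in HCT116 5-FU, and no treatment groups overlapped. The log2 fold change was 1.23 ± 0.267 in SW620 (adjusted p = 0.00727, lost without SW620 5-FU replicate 2 at 0.0832) and 0.72 ± 0.251 in HCT116 (adjusted p = 0.0916). HERC5 was near absent from SW620, with 42 counts over both AFZC libraries and 10 over both 5-FU libraries (adjusted p = 0.122, but 0.00164 without the low-count filter and 0.00642 without SW620 5-FU replicate 1), and had 38.2 ± 4.57 CPM in HCT116 AFZC and 25.2 ± 3.02 CPM in HCT116 5-FU. ISG15 had 82.5 and 97.7 CPM in SW620 AFZC, against 64.2 and 98.5 CPM in SW620 5-FU, which overlapped. HCT116 had 388 and 99.3 CPM under AFZC, against 49.4 and 34.6 CPM under 5-FU, which did not. Its HCT116 log2 fold change of 2.54 ± 0.623 lay at the threshold (adjusted p = 0.0551). It was called by DESeq2 (2.52, adjusted p = 0.00266), with library sizes only (0.0381), without HCT116 AFZC replicate 1 (1.24, adjusted p = 0.0218) and without HCT116 AFZC replicate 2 (3.21, adjusted p = 1.46e-05). The SW620 value was 0.15 ± 0.59 (adjusted p = 0.912). Per kilobase of exon, ISG15 had the highest mean level of the 43 genes in SW620 AFZC (95.7 CPM per kb), SW620 5-FU (86.4) and HCT116 AFZC (259), and in HCT116 5-FU it came second (44.6) to IFITM3 (191).

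SAMD9 and SAMD9L are neighbouring genes on chromosome 7 whose products slow growth and translation. SAMD9 had 24.0 and 23.4 CPM in SW620 AFZC, against 7.06 and 8.10 CPM in SW620 5-FU. HCT116 had 35.7 and 42.2 CPM under AFZC, against 20.6 and 23.5 CPM under 5-FU. The groups were apart in both lines and the replicates close. SAMD9 had a log2 fold change of 1.65 ± 0.192 in SW620 (adjusted p = 0.000124) and 0.82 ± 0.183 in HCT116 (adjusted p = 0.0147), and their difference of 0.82 ± 0.262 was not called (adjusted p = 0.0663). The HCT116 call was lost without AFZC replicate 2 (0.0652), 5-FU replicate 1 (0.172) or 5-FU replicate 2 (0.0792). SAMD9L had 0.366 and 0.446 CPM in SW620 AFZC and 0 counts in both SW620 5-FU libraries, which makes it at least 8.42-fold higher against a floor of 3 counts over the group (adjusted p = 0.0118). SAMD9L needed its SW620 AFZC libraries, where it was high, to pass the low-count filter. Its calls in SW620 and in the difference are therefore not independent of that filter. In HCT116 it had 0.265 and 0.222 CPM under AFZC, against 0.173 and 0.337 CPM under 5-FU, with 18 counts in each group. The difference of effects was called (adjusted p = 0.0409) but was lost without any single library (0.0689 to 0.133). The SW620 call was lost without SW620 5-FU replicate 1 (0.0509) or replicate 2 (0.0748). EPSTI1 was not called between treatments.

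Among the PARP genes, PARP14, an ADP-ribosyl transferase, rose to a like extent in both lines. It had 52.1 and 50.7 CPM in SW620 AFZC, against 35.6 and 31.1 CPM in SW620 5-FU. It had 52.8 and 56.6 CPM in HCT116 AFZC, against 31.6 and 39.3 CPM in HCT116 5-FU. No groups overlapped, and the log2 fold change was 0.62 ± 0.164 in SW620 (adjusted p = 0.0191) and 0.62 ± 0.163 in HCT116 (adjusted p = 0.03). The HCT116 call was lost without any single HCT116 library (0.0693 to 0.265), and the SW620 call without SW620 AFZC replicate 1 (0.0622), SW620 5-FU replicate 1 (0.0565) or SW620 5-FU replicate 2 (0.175). PARP12 had log2 fold changes of 0.30 ± 0.154 in SW620 (adjusted p = 0.2) and 0.52 ± 0.155 in HCT116 (adjusted p = 0.0512). PARP9 had 0.47 ± 0.2 in SW620 (adjusted p = 0.122) and 0.09 ± 0.194 in HCT116 (adjusted p = 0.845), and its ubiquitin ligase partner DTX3L had -0.14 ± 0.157 in SW620 and 0.27 ± 0.157 in HCT116.

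STAT2 was the transcription factor of the set that was called. It had 54.5 and 50.4 CPM in SW620 AFZC, against 37.4 and 33.7 CPM in SW620 5-FU. HCT116 had 75.3 and 73.7 CPM under AFZC, against 85.5 and 86.2 CPM under 5-FU. AFZC libraries lay above 5-FU in SW620 and below it in HCT116. The log2 fold change was 0.56 ± 0.143 in SW620 (adjusted p = 0.0171) and -0.21 ± 0.142 in HCT116 (adjusted p = 0.412), and the difference was 0.77 ± 0.202 (adjusted p = 0.0316). The SW620 call was lost without SW620 AFZC replicate 1 (0.0702), SW620 5-FU replicate 1 (0.0592) or SW620 5-FU replicate 2 (0.165). The difference was lost without any single library other than SW620 AFZC replicate 2 (0.0524 to 0.154). IRF9, the DNA-binding partner of STAT2, had log2 fold changes of 0.04 ± 0.463 in SW620 and -0.08 ± 0.477 in HCT116, and 43.8% of its 50-base words recur in an overlapping locus. IRF1, a factor induced by type II interferon, averaged 34.2 ± 7.32 CPM in SW620 AFZC and 46.1 ± 5.58 CPM in SW620 5-FU, and 19.2 ± 4.42 CPM in HCT116 AFZC and 14.1 ± 3.92 CPM in HCT116 5-FU, with no treatment call. Of its 50-base words 19.4% lie in C5orf56 on the opposite strand, which unstranded libraries cannot separate. IRF7, which amplifies interferon production, had log2 fold changes of -0.25 ± 0.286 in SW620 and 0.61 ± 0.291 in HCT116, not called. The HCT116 value of IRF7 was called without HCT116 AFZC replicate 2 (1.03, adjusted p = 0.0134) and without the low-count filter (0.59, adjusted p = 0.0387).

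The guanylate-binding proteins attack the vacuoles of intracellular pathogens. GBP2 had 46.8 and 19.4 CPM in SW620 AFZC, against 7.33 and 8.34 CPM in SW620 5-FU. HCT116 had 5.62 and 2.25 CPM under AFZC, against 5.22 and 4.72 CPM under 5-FU. The SW620 groups were apart and the HCT116 groups overlapped. GBP2 rose in SW620 by a log2 fold change of 2.08 ± 0.453 (adjusted p = 0.011), against -0.33 ± 0.46 in HCT116 (adjusted p = 0.726), with a difference of 2.41 ± 0.642 (adjusted p = 0.0411). The SW620 value was 1.31 without SW620 AFZC replicate 1 (adjusted p = 0.0525), and the call was also lost without SW620 5-FU replicate 1 (0.0819) or replicate 2 (0.0825). The difference was lost without HCT116 AFZC replicate 2, either HCT116 5-FU library, SW620 AFZC replicate 1 or either SW620 5-FU library (0.0505 to 0.129). It was 1.66 without SW620 AFZC replicate 1 and 3.22 without HCT116 AFZC replicate 1. GBP1 had 103 counts over both SW620 AFZC libraries and 16 over both SW620 5-FU libraries, a ratio of 5.61 (exact 95% counting interval 3.29 to 10.2) that missed the threshold (adjusted p = 0.0531). It was called with library sizes only (0.0244), without the low-count filter (0.0199), in the fit of SW620 alone (0.0365) and without SW620 AFZC replicate 2 (0.0484). HCT116 had 7 GBP1 counts under AFZC and 2 under 5-FU.

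None of the 5 tested genes of the IFI group was called between treatments. Of all genes tested, 11.6% were called higher and 6.95% lower in SW620, and 5.87% higher and 3.74% lower in HCT116. IFI6, an anti-apoptotic mitochondrial protein, is named here after its values were seen. It had 88.3 and 26.7 CPM in SW620 AFZC, against 17.6 and 15.2 CPM in SW620 5-FU, and 64.7 and 37.8 CPM in HCT116 AFZC, against 33.4 and 24.9 CPM in HCT116 5-FU. AFZC lay above 5-FU without overlap in both lines. Its log2 fold change was 1.81 ± 0.529 in SW620 (adjusted p = 0.0527) and 0.81 ± 0.513 in HCT116 (adjusted p = 0.389), and the SW620 value was called by DESeq2 (0.0248), with library sizes only (0.0181) and without SW620 AFZC replicate 2 (2.44, adjusted p = 0.000165). The 2 genes that did not pass the filter were scarce. IFI44L had 0 counts in SW620 and at most 4 in an HCT116 library. XAF1, an inhibitor of an anti-apoptotic protein, had 9 and 20 counts in SW620 AFZC, against 5 and 3 in SW620 5-FU, and 2 and 0 counts in HCT116 AFZC, against 0 and 0 in HCT116 5-FU, and 34.7% of its 50-base words lie in an antisense gene that unstranded libraries cannot separate.

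The lines were also compared under each agent. Under AFZC 10 of the 41 members were higher in SW620 than in HCT116 and 12 lower, where 25.1% of all genes tested were called higher and 24.2% lower. Under 5-FU 10 were higher and 19 lower, where 26.5% of all genes tested were called higher and 28.2% lower. The member counts under AFZC and the higher count under 5-FU lay near these all-gene shares. The member median of the log2 fold change was -0.03 under AFZC and -0.83 under 5-FU, against -0.04 over all genes under 5-FU. These comparisons reuse the libraries of the treatment contrasts. Under 5-FU, IFIT1 (-4.61 ± 0.605, adjusted p = 5.38e-05), IFITM1 (-5.42 ± 0.847, adjusted p = 0.000139) and OAS3 (-1.65 ± 0.199, adjusted p = 1.52e-05) were lower in SW620 than in HCT116, and none of these was called under AFZC. IFIT1 was called under AFZC by DESeq2 (-1.07, adjusted p = 0.0406), without the low-count filter (-1.07, adjusted p = 0.00358) and without SW620 AFZC replicate 1 (-2.37, adjusted p = 0.000172). Leaving out SW620 AFZC replicate 2 brought a call under AFZC for IFITM1 (1.48, adjusted p = 0.021) and OAS3 (0.51, adjusted p = 0.0433). Among the members called lower in SW620 under both agents were IFITM3 (-1.88 ± 0.199 under AFZC and -2.41 ± 0.203 under 5-FU), HERC6 (-1.36 ± 0.255 and -1.87 ± 0.268) and SAMD9 (-0.71 ± 0.183 and -1.54 ± 0.191). TRIM22, STAT2, USP18, PARP9 and IFIT5 were also called lower under both. With the replicate block SAMD9, STAT2, USP18 and IFIT5 lost the call under AFZC. Against that, OAS1 (2.66 ± 0.396 under AFZC and 3.89 ± 0.445 under 5-FU), MX1 (2.73 ± 0.32 and 1.52 ± 0.315) and MX2 (4.22 ± 0.457 and 3.17 ± 0.499) were higher in SW620 under both agents. For MX2 under 5-FU the pooled counts (97 against 12) gave a ratio of 9.14 (5.00 to 18.3). The OAS1 value under AFZC was 1.98 without SW620 AFZC replicate 1 and 3.26 without HCT116 AFZC replicate 1, both called.

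A further 13 members were called between lines but not between treatments, and the share of all genes so called was not counted. Among these, CMPK2, RSAD2 and IFI44 passed the low-count filter through HCT116 libraries alone, and GBP1 through SW620 libraries alone. Those with the largest values higher in SW620 were ISG20, GBP1, EPSTI1, IRF1 and IRF7. ISG20, an exonuclease acting on single-stranded RNA, averaged 57.9 ± 12.2 CPM in SW620 AFZC against 12.9 ± 8.997 CPM in HCT116 AFZC, and 67.4 ± 20.1 CPM in SW620 5-FU against 4.53 ± 0.338 CPM in HCT116 5-FU. Under 5-FU the log2 difference was 3.89 ± 0.502 for ISG20, 2.71 ± 0.351 for EPSTI1, 1.71 ± 0.244 for IRF1 and 1.57 ± 0.295 for IRF7. For GBP1 the ratio of pooled counts was 15.2 under AFZC (7.12 to 38.8) and 9.05 under 5-FU (2.13 to 81.1), and the 5-FU call was lost without HCT116 5-FU replicate 2 (adjusted p = 0.202) or SW620 5-FU replicate 1 (0.279), with library sizes only (0.062) and in the fit of the 5-FU libraries alone (0.0809). Those with the largest values lower in SW620 were CMPK2, RSAD2, HERC5, IFI44 and IFI27. CMPK2 was at least 51.9-fold lower under AFZC and at least 22.7-fold lower under 5-FU, and RSAD2 at least 7.74-fold and at least 8.84-fold lower, against the floor of 3 counts over the group. HERC5 was lower in SW620 by a log2 fold change of -6.01 ± 0.511 under AFZC (adjusted p = 3.53e-06), and its counts under 5-FU (10 against 1773) gave a 157-fold lower level (85.0 to 327). IFI44 was at least 24.2-fold lower under 5-FU (0 against 82 counts), and IFI27 had -2.53 ± 0.518 under 5-FU (adjusted p = 0.00112), or -3.46 without SW620 5-FU replicate 2. The RSAD2 call was lost without either SW620 library under AFZC (0.0516 and 0.0529) and without HCT116 5-FU replicate 2 under 5-FU (0.082). The other 8 members were called in no comparison, namely DTX3L, IFI16, IFI35, IFI6, IFITM2, IRF9, ISG15 and OASL.

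**Figure D5:**
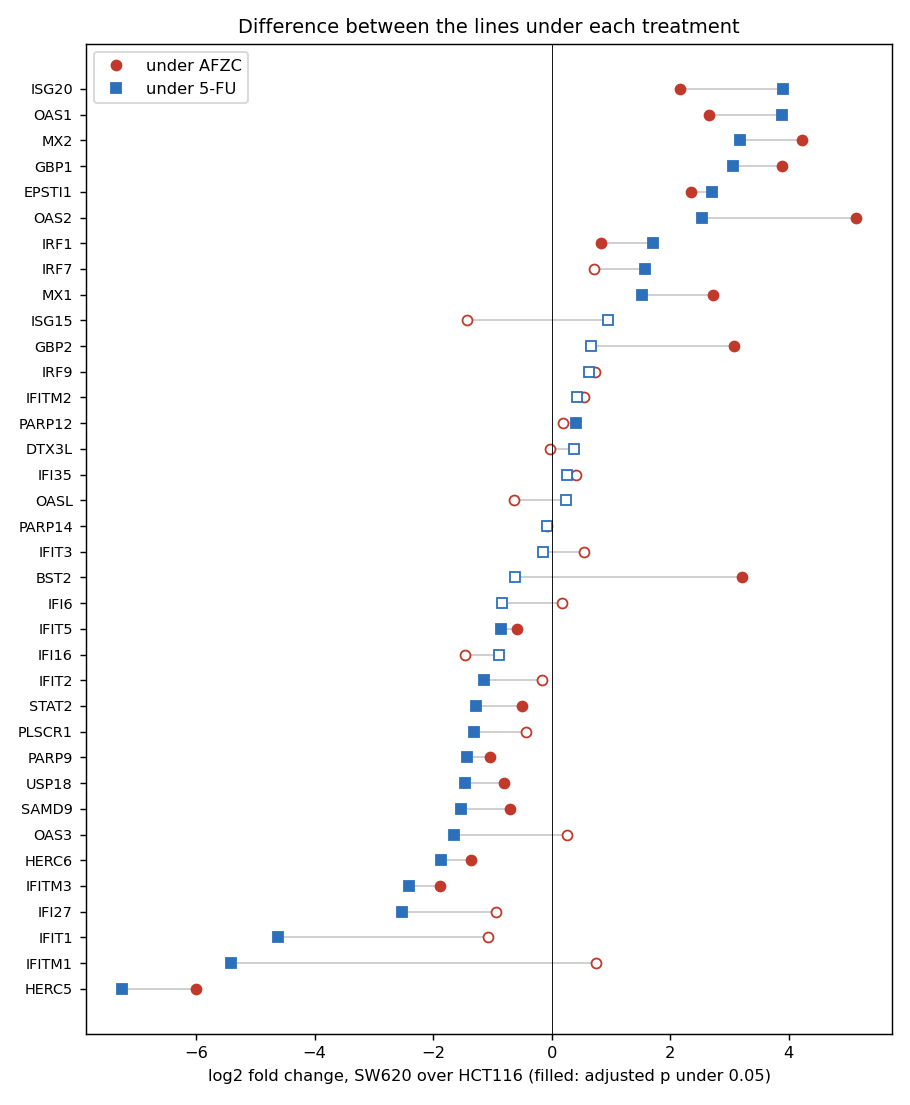
Log2 fold change of SW620 over HCT116 under AFZC (red circles) and under 5-FU (blue squares) for 36 tested members, filled where the adjusted p was under 0.05, leaving out 5 members with a group at 0. For BST2, OAS3, IFIT1 and IFITM1 the red circle lies right of the blue square, with BST2 at 3.21 under AFZC and -0.63 under 5-FU, and the gap between the symbols is the difference of AFZC effects.

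Other genes of the pathway were read from lists, whose counts stand beside the all-gene shares of 11.6% called higher and 6.95% lower in SW620, and 5.87% higher and 3.74% lower in HCT116. Of 10 interferon ligands 1 passed the low-count filter (IFNE), and it was not called between treatments in either line. Of 9 receptor and kinase genes 2 rose and 2 fell in SW620 and none was called in HCT116. TYK2, a receptor-bound kinase, had 91.5 and 76.8 CPM in SW620 AFZC, against 46.1 and 42.0 CPM in SW620 5-FU, with a log2 fold change of 0.93 ± 0.161 (adjusted p = 0.00184). Its partner JAK1 fell, with 258 and 238 CPM in SW620 AFZC, against 357 and 412 CPM in SW620 5-FU (-0.63 ± 0.154, adjusted p = 0.0135). The interferon lambda receptor chain IFNLR1 rose (0.88 ± 0.236, adjusted p = 0.0221) and the interferon gamma receptor chain IFNGR2 fell (-0.74 ± 0.175, adjusted p = 0.0115). The falls of JAK1 and IFNGR2 were not called with library sizes only (adjusted p = 0.248 for JAK1 and 0.132 for IFNGR2). The difference of effects between lines was called for TYK2 (0.88, adjusted p = 0.0289) and lost without any single library other than HCT116 AFZC replicate 1 and SW620 AFZC replicate 2 (0.0651 to 0.134). JAK1 lost its call without SW620 AFZC replicate 2 (0.0525) or SW620 5-FU replicate 2 (0.143). IFNLR1 lost it without SW620 AFZC replicate 1 (0.0594), SW620 5-FU replicate 1 (0.136) or SW620 5-FU replicate 2 (0.0749), and IFNGR2 without the same libraries (0.0927, 0.0564 and 0.083).

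Of 15 nucleic acid sensors and adaptors 12 were tested, of which 5 rose in SW620 and 2 in HCT116, and none fell. TMEM173 (STING), the adaptor for DNA sensing, had 26.3 and 22.5 CPM in SW620 AFZC, against 8.61 and 5.71 CPM in SW620 5-FU, and 52.2 and 41.1 CPM in HCT116 AFZC, against 35.5 and 32.8 CPM in HCT116 5-FU. Its log2 fold change in SW620 was 1.77 ± 0.223 (adjusted p = 0.000224), larger than in HCT116 by 1.32 ± 0.304 (adjusted p = 0.0173). The call on that difference was lost without HCT116 5-FU replicate 1 (0.0929), HCT116 5-FU replicate 2 (0.0609) or SW620 5-FU replicate 2 (0.0909). TLR3, the endosomal receptor for double-stranded RNA, had 13.7 and 18.9 CPM in HCT116 AFZC, against 2.16 and 2.33 CPM in HCT116 5-FU (2.86 ± 0.361, adjusted p = 0.000636), and its adaptor TICAM1 rose in that line too (0.83, adjusted p = 0.0259). TLR3 also rose in SW620, with 1.41 and 1.39 CPM under AFZC, against 0.275 and 0.695 CPM under 5-FU (1.502, adjusted p = 0.0268), a call lost without SW620 AFZC replicate 1 (0.0656) or SW620 5-FU replicate 1 (0.169) and in the fit of SW620 alone (0.096), and its value was 2.33 without SW620 5-FU replicate 2 (0.023). The TICAM1 effect was smaller in SW620 than in HCT116 (difference -1.33, adjusted p = 0.0143), a call lost without HCT116 5-FU replicate 1 (0.0706), HCT116 5-FU replicate 2 (0.0873) or SW620 5-FU replicate 2 (0.0862). In SW620 the dNTP hydrolase SAMHD1 (0.97 ± 0.167, adjusted p = 0.00181) and the RNA sensor DDX58 (RIG-I; 0.76 ± 0.212, adjusted p = 0.0257) rose. TICAM1 lost its call without HCT116 AFZC replicate 1 (0.216), HCT116 5-FU replicate 1 (0.164) or HCT116 5-FU replicate 2 (0.189). DDX58 lost it without SW620 AFZC replicate 1 (0.0954) or SW620 5-FU replicate 2 (0.229), and in the fit of SW620 alone (0.0587).

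Of 11 induction and signalling factors 10 were tested, of which 2 rose in SW620, among them the kinase IKBKE (0.97, adjusted p = 0.0258), and none was called in HCT116. The IKBKE call was lost without SW620 AFZC replicate 2 (0.102) or SW620 5-FU replicate 2 (0.231). Of 7 negative regulators, PTPN2 fell in SW620 (-0.62, adjusted p = 0.0268), but not with library sizes only (0.311), nor without SW620 AFZC replicate 1 (0.127), SW620 5-FU replicate 1 (0.0563) or SW620 5-FU replicate 2 (0.215). SOCS3, a feedback inhibitor of the kinases, fell in HCT116 to 39.3 and 26.3 CPM under AFZC, against 62.6 and 59.5 CPM under 5-FU (-0.90 ± 0.198, adjusted p = 0.0141). That call was lost without HCT116 AFZC replicate 2 (0.0627), HCT116 5-FU replicate 1 (0.144) or HCT116 5-FU replicate 2 (0.0833).

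Of 15 genes of MHC class I and antigen processing, 4 rose and 1 fell in SW620 (11.6% and 6.95% of all genes), and 2 rose and 2 fell in HCT116 (5.87% and 3.74% of all genes). In SW620 NLRC5, the activator of class I genes, had 24.2 and 21.2 CPM under AFZC, against 6.16 and 5.86 CPM under 5-FU (1.92 ± 0.217, adjusted p = 0.000105). The immunoproteasome subunit PSMB9 had 14.9 and 7.84 CPM in SW620 AFZC, against 3.89 and 2.96 CPM in SW620 5-FU (1.73 ± 0.318, adjusted p = 0.00269). The peptide transporter subunit TAP1 rose in HCT116, with 129 and 108 CPM under AFZC, against 49.8 and 49.0 CPM under 5-FU (1.27 ± 0.155, adjusted p = 0.000503). The effect was larger in SW620 for NLRC5 (difference 1.33, adjusted p = 0.0149) and PSMB9 (1.99, adjusted p = 0.0136) and smaller for TAP1 (-1.04, adjusted p = 0.0105). These 3 differences lost their calls without HCT116 5-FU replicate 1 (0.0535 to 0.0803), HCT116 5-FU replicate 2 (0.056 to 0.0685) or SW620 5-FU replicate 2 (0.0656 to 0.0714).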

How the data were processed

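Polyadenylated RNA of 8 libraries (2 cell lines, 2 treatments, 2 libraries in each of 4 groups) was sequenced from non-strand-specific libraries, per the labels' protocols. The deposited table holds counts per gene with exon length, on GRCh38. Tools listed in the submitters' processing notes, with no roles given, are the aligners STAR and HISAT2, featureCounts for counting, the trimmers cutadapt and Trimmomatic, and edgeR, DESeq2 and FastQC. Low genes had counts of 2 about 1.68 to 1.84 times as often as counts of 1, and exact intervals on counts cover counting error only and are too narrow where both mates were counted. Groups were taken from the labels. Counts were tested with edgeR 4.0.16 (R 4.3.3, limma 3.58.1): filterByExpr with a minimum count of 10, TMM, robust quasi-likelihood fit of 4 group means over 8 libraries (4 residual degrees of freedom, common biological coefficient of variation 19.9%), Benjamini-Hochberg adjustment over 21378 genes, calls below 0.05. The alternatives were RLE size factors, library sizes only, no low-count filter, DESeq2 1.42.0, a replicate block, fits of 1 line or treatment alone, and leaving out each library. The procedure was tested on simulated data. Where a group held under 20 counts, some comparisons are given as ratios of pooled counts with exact 95% intervals, or as bounds against a floor of 3 counts over the group. Others are given by their counts or by the fitted value. Words of 50 bases shared between transcripts were counted in GENCODE transcripts. The members, the pathway lists and the naming rule were chosen with earlier results of these data known. Members called in a treatment contrast or in the difference are given per library, other members of their families by value, the 5 largest in each direction of those called between lines alone, and at most 4 of each pathway list per contrast by smallest adjusted p. Some genes of the pathway lists are counted with their list but not reported here by name.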

Additional observations from a re-analysis of the deposited data

Results flagged for a closer look

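The AFZC effect differed between SW620 and HCT116 for 8 of the 41 tested members by the interaction term of the edgeR fit (adjusted p under 0.05). As log2 differences, SW620 minus HCT116, the values were 3.83 for BST2, 1.91 for OAS3, 6.16 for IFITM1, 3.53 for IFIT1, 2.41 for GBP2, 0.77 for STAT2 and 0.88 for PLSCR1. For SAMD9L the fitted value was 6.90, which depends on the prior count because SW620 5-FU held 0 counts and is no bound. For BST2, IFITM1, PLSCR1 and STAT2 both AFZC libraries lay above both 5-FU libraries in SW620 and below both in HCT116. Of all genes tested, 31.5% lay above both in SW620 and 27.4% below both in HCT116, and the share doing both was not counted. In HCT116 the fall was called for BST2 alone among these genes. With 2 libraries a group, no search for outlying libraries was made.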

How the results depend on the processing

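RLE size factors, library sizes only, no low-count filter, DESeq2, the replicate block and single-line fits kept all 18 members called in SW620 and all 7 in HCT116. Counts of members called moved by over 1.5 times as follows, without the all-gene shares of the same settings beside them. In HCT116, members called higher numbered 11 with DESeq2 (6 in the report) and 1 to 8 with single libraries left out, and members called lower 2 in the fit of that line alone (1 in the report) and 0 with any of its libraries left out. In SW620, members called higher ranged from 7 to 21 with single libraries left out. For the difference between lines, members called larger ranged from 3 to 7 and smaller from 0 to 4 with single libraries left out, and members called smaller numbered 3 without the low-count filter, 1 with DESeq2 and 1 with the replicate block (0 in the report). Under AFZC, members lower in SW620 than in HCT116 numbered 7 with the replicate block (12 in the report) and 8 to 13 with single libraries left out. The replicate block ended the call on the difference for PLSCR1 (adjusted p = 0.0732) and SAMD9L (0.0763), and the call between lines under 5-FU for GBP1 (0.0598), IFIT2 (0.0731), PARP12 (0.109) and RSAD2 (0.113). It brought a call for ISG15 in HCT116 (0.00387), for GBP1 in SW620 (0.0449) and for IFI6 in SW620 (0.00898). DESeq2 gave no adjusted p for the SAMD9L difference. The replicate block gave 20 higher in SW620 and 7 higher in HCT116. The labels do not say whether same-numbered libraries were paired. Their deviations did not move together (Pearson's r across genes, which are not independent, 0.0505 in HCT116 and -0.0262 in SW620). With 2 libraries a group this cannot show that they were unpaired. For SW620 over HCT116 under AFZC, the log2 fold change of OASL reversed to 1.16 without HCT116 AFZC replicate 1 (lowest -1.42), and that of IFI6 to -0.93 without SW620 AFZC replicate 1 (highest 0.79). The cause was not tested. With library sizes only, the median of all genes in SW620 was 0.40 (0.03 with TMM) and that of the members 1.52, all-gene calls in SW620 were 5141 higher and 445 lower (2482 and 1486 with TMM), those of the difference 2455 and 430 (1207 and 884), and those of SW620 against HCT116 under 5-FU 4267 and 7714 (5675 and 6030). Without the low-count filter 1848 genes were called larger in the difference and 1306 lower in HCT116, where the fit of that line alone called 1255 (800 in the report). With 2 libraries a group, leaving 1 out often ended a call, most often a 5-FU library, and counts below about 20 in a group limit IFITM1 (4 in SW620 5-FU), MX2 (12 in HCT116 5-FU), HERC5 (10 in SW620 5-FU), SAMD9L, GBP1, OAS2, TRIM22, RSAD2, CMPK2, IFI44, IFI16, IFI44L and XAF1.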
